A study of Mus musculus with 2 samples.

Results

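Transcripts of 10 transcription factor genes of the gonadal soma were followed through the cell types of the newborn mouse ovary. The genes were Foxl2, Runx1, Gata4, Gata6, Nr5a1, Nr5a2, Irx3, Irx5, Wt1 and Emx2. They were taken by name from the 31057 genes in the files, with earlier results of these data known. The data were 2 single-cell RNA-seq libraries of whole ovaries of female CD1 mice at postnatal day 2. Each library pooled the ovaries of several pups of a single dam, so the libraries are the replicates (n = 2) and cells are not. No treatment or mutation was compared, and all comparisons are between cell types of these libraries.

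These factors act in overlapping steps. Wt1, Emx2, Gata4, Gata6 and Nr5a1 are known from the early gonad, which forms at the coelomic surface and gives rise to supporting cells. Foxl2 and Runx1 maintain the identity of granulosa cells, the supporting cells that enclose each oocyte. Irx3 and Irx5 are neighbouring homeobox genes with a role in follicle integrity, and Nr5a2, a nuclear receptor related to Nr5a1, is needed in granulosa cells for ovulation.

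Cells were assigned to types by unique molecular identifiers (UMIs, each standing for a captured molecule) of marker genes outside the 10 factors. Granulosa cells were taken by Fst, Wnt6, Inha and Kctd14 (1558 and 514 cells in replicates 1 and 2), interstitial cells by Col1a2 and Dcn (1379 and 2492), surface mesothelial cells by Upk3b (128 and 194), germ cells by Ddx4, Dazl and Ooep (228 and 643) and endothelial cells by Cdh5 (51 and 24). Markers kept out of the gates were highest in sum in the type they belong to, in both libraries, but not gene by gene. Of the granulosa markers, Cdkn1c was at a mean of 43.0 raw CPM in granulosa, 266 in interstitial and 356 in mesothelial cells. Kitl was at 92.7 in granulosa and 99.1 in mesothelial cells. The granulosa gate gene Wnt6 was at 368 and 360 raw CPM in mesothelial and 406 and 405 in granulosa cells. Fst, Inha and Kctd14 were at 28.5 to 54.9 in mesothelial cells. Cells passing both gates entered neither type. Counted as mesothelial, they would bring that type to 157 and 234 cells. The libraries held 54471790 and 59074480 UMIs, and 21 cell barcodes occurred in both. The germ cells of replicate 2 held the granulosa gate genes at 74.2 raw CPM in sum against 15.6 in replicate 1, and its endothelial cells the interstitial gate genes at 244 against 20.8 (CPM is the usual per-gene count brought to a common library total, and raw CPM has no further scaling). Within 25% of the granulosa threshold, on either side of it, lay 167 cells in replicate 1 and 265 in replicate 2. For comparison, 1609 and 651 cells were at or above that threshold.

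Levels are CPM of UMIs added up per type and library and scaled between these sums by edgeR's TMM factors, and levels of different genes are not compared. A gene was called when its log2 fold change was over 1 in size and its adjusted p under 0.05 (edgeR's quasi-likelihood test, Benjamini-Hochberg over 14873 genes). Granulosa cells carried all 10 factors at 56.5 CPM or more in both libraries. Mesothelial cells carried 8 at 53.5 CPM or more, all but Foxl2 and Nr5a2. With every cell thinned to 2000 UMIs, a granulosa cell held UMIs of 2.28 and 2.50 factors on average, a mesothelial cell of 2.45 and 2.42, an interstitial cell of 1.04 and 1.24, an endothelial cell of 0.490 and 0.542 and a germ cell of 0.0452 and 0.147. The order of granulosa and mesothelial cells differed between the libraries.

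**Figure D1:**
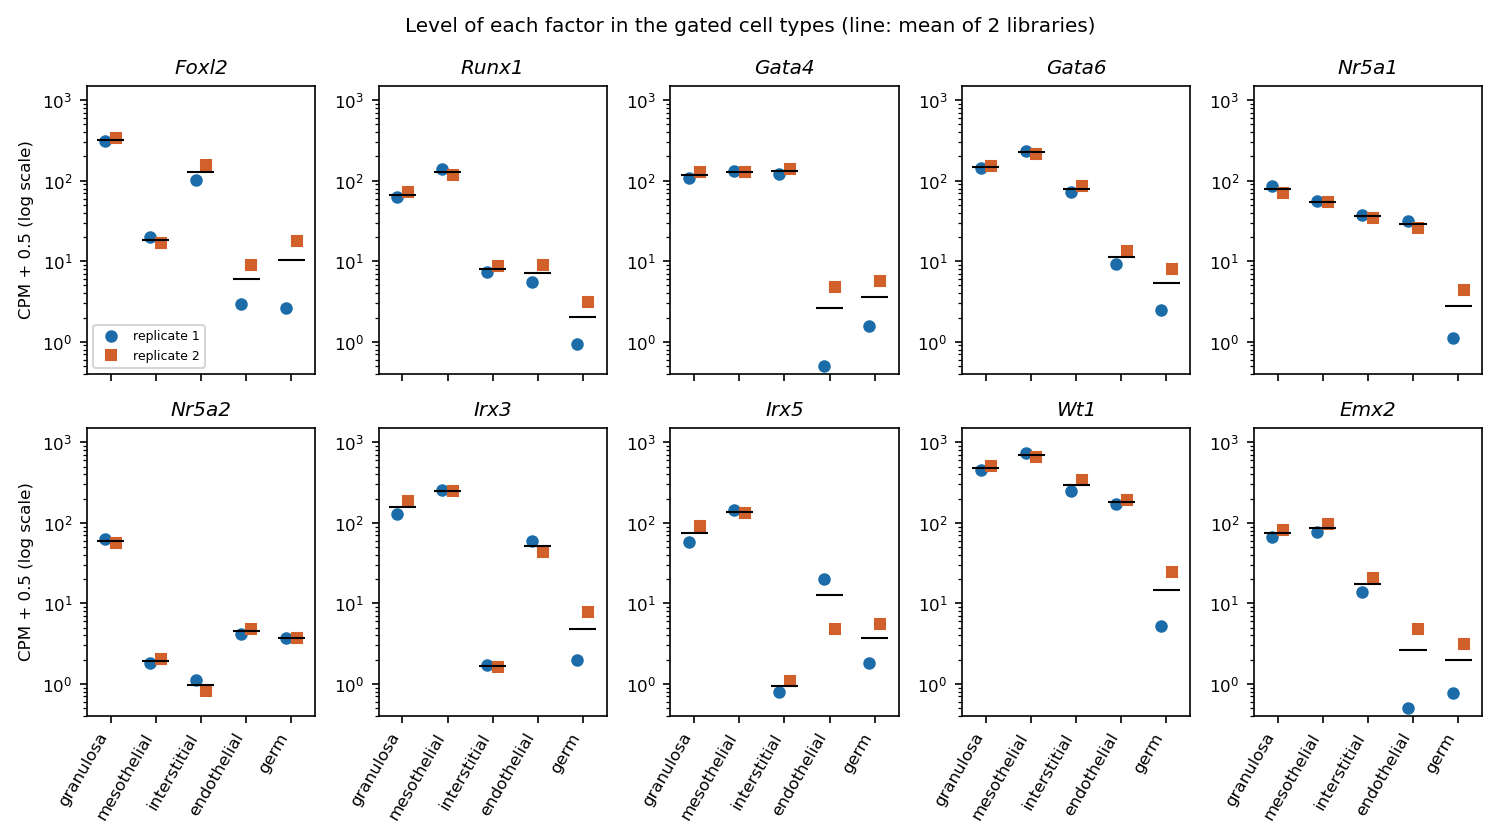
Level of each factor in the 5 gated cell types, as CPM + 0.5 on a log axis. Circles and squares are replicates 1 and 2 and the line is their mean. Nr5a2 stands at 62.6 and 56.5 CPM in granulosa cells and under 5 in the other types, Irx3 and Irx5 are lowest in interstitial cells, and Gata4 is level across granulosa, mesothelial and interstitial cells.

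Of the 10 factors, 6 were higher and 0 lower in granulosa than in interstitial cells, where 27.9% of all genes tested were called (15.1% higher, 12.8% lower). Their median log2 fold change was 1.72, and that of all genes 0.00. Against mesothelial cells 2 were higher in granulosa cells and 0 lower (16.1% of all genes called, 7.64% higher and 8.5% lower), with a median of -0.39. Mesothelial cells had 6 factors higher and 1 lower than interstitial cells (23% called, 12.5% higher and 10.5% lower), with a median of 1.61. All 10 were higher in granulosa than in germ cells (58.9% called, 32.3% higher and 26.7% lower) and 7 were higher than in endothelial cells (19.3% called, 9.72% higher and 9.53% lower).

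**Figure D2:**
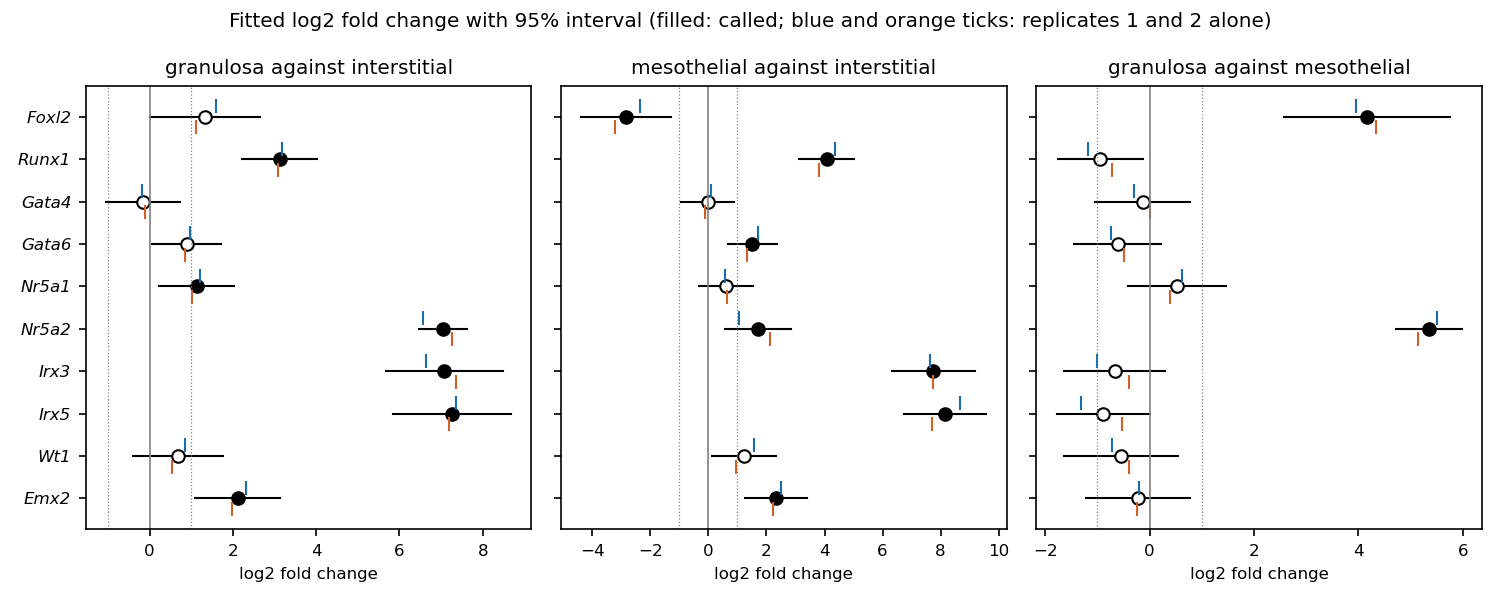
Fitted log2 fold change of each factor (points) with its 95% interval (bars) in 3 comparisons of cell types. Filled points were called, and blue and orange ticks give replicates 1 and 2 alone. Nr5a2, Irx3 and Irx5 lie at 7.05, 7.08 and 7.27 in granulosa against interstitial cells, and Foxl2 and Nr5a2 are the filled points of granulosa against mesothelial cells.

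Foxl2 (ENSMUSG00000050397, GRCm38 chromosome 9, 98955288 to 98958543, plus strand), the forkhead factor that maintains ovarian fate, had 310 and 336 CPM in granulosa cells of replicates 1 and 2. Interstitial cells had 102 and 154 CPM, mesothelial cells 19.7 and 16.6, germ cells 2.13 and 17.5 and endothelial cells 2.48 and 8.48. The granulosa values overlapped those of no other type. Foxl2 was 17.9-fold higher in granulosa than in mesothelial cells (log2 fold change 4.16, SE 0.72, adjusted p = 0.00247). It was the factor that was lower in mesothelial than in interstitial cells (log2 fold change -2.83, SE 0.70, adjusted p = 0.0102).

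Between granulosa and interstitial cells the log2 difference of Foxl2 was 1.33 (SE 0.59, 95% interval 0.01 to 2.65) and was not called (adjusted p = 0.0988). The log2 ratio within each library was 1.60 and 1.12. With the library as a block the difference was 1.40 and was called (adjusted p = 0.0313). In a fit of the 4 somatic types without germ cells, added after seeing the data, it was 1.34 (SE 0.21, adjusted p = 3.77e-04).

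In raw CPM, interstitial cells held Foxl2 at 31.3% and 44.0% of the granulosa level of the same library. The 4 granulosa gate genes lay between 0.402% (Fst) and 9.04% (Kctd14) of their granulosa raw CPM there. Cells of any other type had to fall under the granulosa gate, so this low level was set by the gating. Of granulosa markers outside the gate, Amhr2 was at a mean of 11.3 raw CPM in interstitial and 523 in granulosa cells. Hsd17b1 was at 0.0496 and 49.9, and Fshr at 0 and 0.746. Kitl was at 22.8 and 92.7, Serpine2 at 221 and 1107.5, and Cdkn1c at 266 and 43.0. Foxl2 UMIs were found in 45.5% of interstitial cells in replicate 1 (exact binomial 95% interval 42.9% to 48.2%, counting error only) and in 50.6% in replicate 2 (48.6% to 52.6%). At 2000 UMIs per cell the shares were 18.3% and 25.02% in interstitial, 43.7% and 45.0% in granulosa, and 0.905% and 2.31% in germ cells, which should lack the gene. In the 983 and 1782 interstitial cells without a UMI of any granulosa gate gene, Foxl2 was at 91.5 and 145 raw CPM, against 99.8 and 152 in all interstitial cells. Interstitial cells with a Foxl2 UMI held the granulosa gate genes at 75.5 and 86.0 raw CPM in sum, and those without held 46.4 and 64.3.

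**Figure D3:**
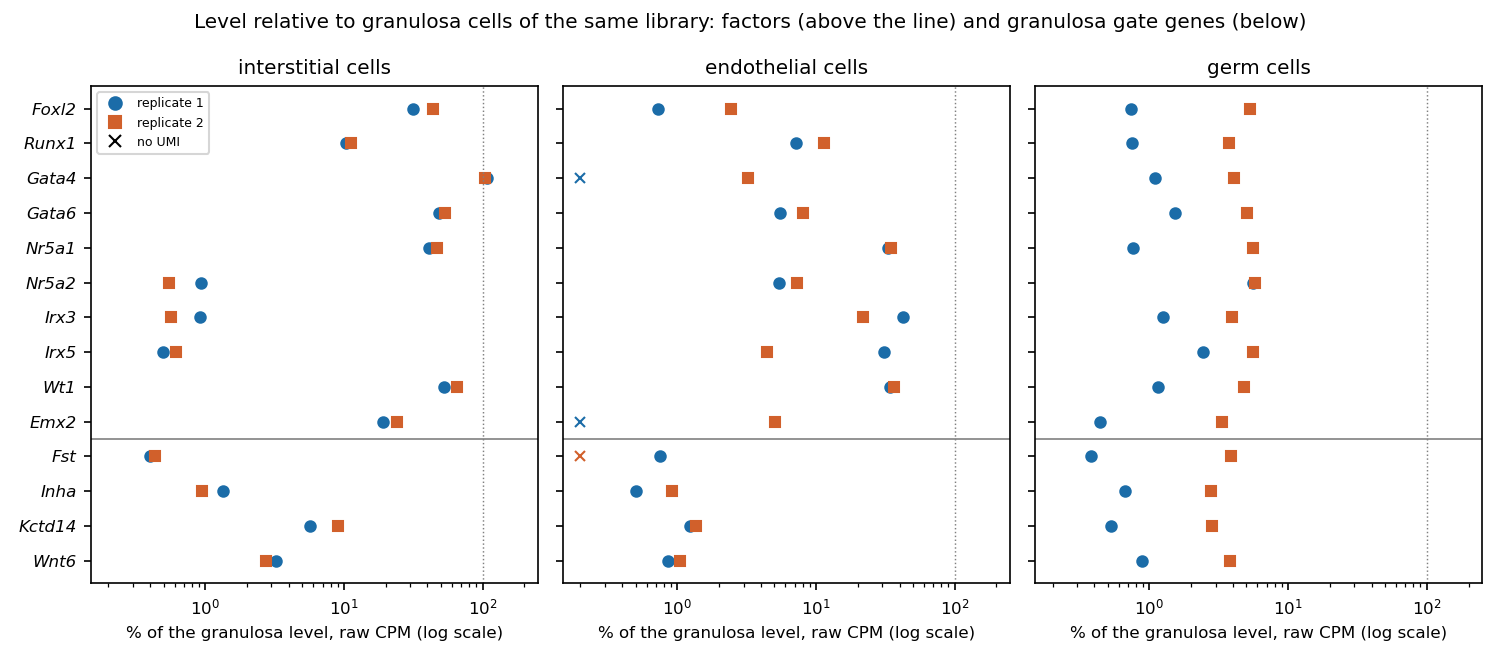
Level in interstitial, endothelial and germ cells as a percentage of the granulosa level of the same library, both in raw CPM, on a log axis. Factors stand above the line and granulosa gate genes below it, circles and squares are replicates 1 and 2, and crosses mark genes without a UMI. In interstitial cells Foxl2 (31.3% and 44.0%) lies above the gate genes (at most 9.04%), while Nr5a2, Irx3 and Irx5 lie under 1%. The low level of the gate genes outside granulosa cells was set by the gating. In germ cells replicate 2 lies above replicate 1 for factors and gate genes, and the libraries meet for Nr5a2 (5.54% and 5.76%).

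Runx1 (ENSMUSG00000022952, chromosome 16, 92601466 to 92826149, minus strand), a runt-domain factor of the supporting lineage, had 140 and 118 CPM in mesothelial cells. Granulosa cells had 62.3 and 71.5 CPM, interstitial cells 6.81 and 8.34, endothelial cells 4.97 and 8.48 and germ cells 0.436 and 2.64. Mesothelial and granulosa cells stood clear of the other types and of each other. Runx1 was 8.73-fold higher in granulosa than in interstitial cells (log2 fold change 3.13, SE 0.41, adjusted p = 1.82e-04) and 16.8-fold higher in mesothelial than in interstitial cells (4.07, SE 0.42, adjusted p = 6.06e-05). Granulosa against mesothelial cells was -0.95 (SE 0.37, adjusted p = 0.0946) and was not called.

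Nr5a2 (ENSMUSG00000026398, chromosome 1, 136842571 to 136960448, minus strand) had 62.6 and 56.5 CPM in granulosa cells. Interstitial cells had 0.610 and 0.323 CPM (6 and 5 UMIs), mesothelial cells 1.31 and 1.56 (3 and 5 UMIs), germ cells 3.22 and 3.22, and endothelial cells 3.73 and 4.24 (3 and 1 UMIs). Granulosa cells stood far above every other type in both libraries. The difference was 132-fold from interstitial cells (log2 fold change 7.05, SE 0.26, adjusted p = 3.15e-07), 40.6-fold from mesothelial cells (5.34, SE 0.29, adjusted p = 2.24e-05) and 18.5-fold from germ cells (4.21, SE 0.19, adjusted p = 1.68e-07). UMIs were found in 37.0% and 31.3% of granulosa cells and in 0.435% and 0.201% of interstitial cells. A higher level in mesothelial than in interstitial cells (1.70, SE 0.51, adjusted p = 0.0430) rested on these few UMIs and was lost in 6 of 10 alternatives.

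The bases before the starts of Nr5a2 are shown because it was the factor with the largest fitted difference between granulosa and mesothelial cells. RefSeq gives 2 starts on the minus strand (GRCm38.p6). The 250 bases before each were searched on both strands for TGATAA, a motif of zinc finger factors such as Gata4, for AAGGTCA, a motif of receptors such as Nr5a1, and for TGTGGT, a motif of runt-domain factors, and capitals mark a match.
Nr5a2 distal start, chr1:136960449-136960698: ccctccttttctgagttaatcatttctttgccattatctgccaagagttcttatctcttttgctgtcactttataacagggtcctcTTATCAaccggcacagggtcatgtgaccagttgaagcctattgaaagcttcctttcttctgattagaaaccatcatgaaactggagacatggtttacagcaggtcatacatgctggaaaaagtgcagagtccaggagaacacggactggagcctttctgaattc
Nr5a2 internal start, chr1:136953631-136953880: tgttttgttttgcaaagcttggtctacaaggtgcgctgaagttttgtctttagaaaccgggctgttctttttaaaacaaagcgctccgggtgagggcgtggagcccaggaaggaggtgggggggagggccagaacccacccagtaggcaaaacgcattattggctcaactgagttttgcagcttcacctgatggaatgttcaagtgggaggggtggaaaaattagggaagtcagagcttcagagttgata
The distal window held 1 match, the first motif on the opposite strand, beginning 164 bases before the start. The internal window, in an intron of the longer transcripts, held none of the 3. TGATAA occurs in 7.94%, AAGGTCA in 4.08% and TGTGGT in 14.0% of 32851 mouse promoter windows of this length. A match describes letters and is not a binding site.

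Nr5a1 (ENSMUSG00000026751, chromosome 2, 38692656 to 38714542, minus strand), the related receptor that controls steroidogenic genes, was spread more widely. It had 85.3 and 70.3 CPM in granulosa, 55.0 and 53.5 in mesothelial, 36.9 and 34.4 in interstitial, 31.0 and 25.4 in endothelial and 0.599 and 3.90 in germ cells. No neighbours in this order overlapped, but only endothelial and germ cells passed the test (germ against endothelial cells -3.61, SE 0.77, adjusted p = 0.00257). That call was lost in thinned cells and with doubled gate thresholds. Granulosa against interstitial cells was called at 1.13 (SE 0.40, adjusted p = 0.0456), close to both thresholds. This call was lost with DESeq2, without the filter on low counts, and with cells of both epithelial gates counted as mesothelial, a setting added after seeing the data.

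Irx3 (ENSMUSG00000031734, chromosome 8, 91798525 to 91802067, minus strand) and Irx5 (ENSMUSG00000031737, chromosome 8, 92357625 to 92376286, plus strand) lie 555557 bases apart. Irx3 had 252 and 247 CPM in mesothelial, 127 and 187 in granulosa and 1.22 and 1.10 in interstitial cells. Irx5 had 143 and 132 CPM in mesothelial, 58.1 and 91.6 in granulosa and 0.305 and 0.582 in interstitial cells. Both epithelial types were far above interstitial cells, where Irx3 rested on 12 and 17 UMIs and Irx5 on 3 and 9.

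The log2 fold change of granulosa against interstitial cells was 7.08 for Irx3 (SE 0.63, adjusted p = 1.64e-05) and 7.27 for Irx5 (SE 0.64, adjusted p = 1.51e-05). Mesothelial cells exceeded interstitial cells by 7.75 (SE 0.64, adjusted p = 1.65e-05) and 8.15 (SE 0.64, adjusted p = 1.32e-05). Granulosa against mesothelial cells was -0.67 for Irx3 (95% interval -1.64 to 0.30) and -0.89 for Irx5 (-1.78 to 0.01), and neither was called. Interstitial cells were also lower than germ cells in Irx3 (-1.97, SE 0.65, adjusted p = 0.0176) and Irx5 (-2.80, SE 0.74, adjusted p = 0.00567). The log2 ratio in replicates 1 and 2 was -0.34 and -2.67 for Irx3 and -2.01 and -3.03 for Irx5. The Irx3 call was lost with doublets kept and the Irx5 call in thinned cells. The part of somatic RNA in the germ cells was not tested.

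Endothelial cells, few as they were, held RNA of Irx3, Wt1 and Nr5a1. Irx3 was at 59.6 and 42.4 CPM (48 and 10 UMIs). Raw CPM was also set against the granulosa level of the same library. Irx3 was at 42.4% and 21.8% of it, Wt1 at 34.3% and 36.5% and Nr5a1 at 32.9% and 34.9%. The granulosa gate genes lay at 0% to 1.36%, a low level set by the gating. Of granulosa markers outside the gate, Kitl was at a mean of 61.7 raw CPM in endothelial and 92.7 in granulosa cells. Serpine2 was at 123 and 1107.5 and Cdkn1c at 162 and 43.0. Amhr2 was at 6.14 and 523, Hsd17b1 at 0 and 49.9 and Fshr at 0 and 0.746. In the 31 and 12 endothelial cells without a UMI of the granulosa, interstitial or mesothelial gates, Irx3 was at 68.6 and 76.6, Wt1 at 149 and 140, and Nr5a1 at 34.3 and 38.3 raw CPM. The 6 perivascular markers, not used in that selection, summed to 72.7 and 567 raw CPM in all endothelial cells, and their part was not tested. Within 25% of the endothelial threshold, on either side, lay 12 and 20 cells, where 53 and 32 were at or above it. Interstitial cells were lower than endothelial cells in Irx3 (-5.54, SE 0.76, adjusted p = 4.82e-04) and in Irx5 (-5.04, SE 1.14, adjusted p = 0.00980). The Irx5 value rested on 16 and 1 endothelial UMIs and was lost in thinned cells and with doubled gate thresholds. Germ against endothelial cells was -2.24 for Irx5 (adjusted p = 0.0563) and was called with the library as a block (-2.47, adjusted p = 0.0235), but the log2 ratio was -3.81 in replicate 1 and 0.26 in replicate 2.

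Gata4 (ENSMUSG00000021944, chromosome 14, 63198922 to 63271692, minus strand), a zinc finger factor of the early gonad, was nearly even across the large somatic types. It had 107 and 128 CPM in granulosa, 130 and 127 in mesothelial and 122 and 139 in interstitial cells, and these ranges overlapped. Granulosa against interstitial cells was -0.16 (95% interval -1.04 to 0.73) and mesothelial against interstitial cells -0.02 (-0.93 to 0.88). Neither was called, and the intervals leave room for differences near the fold used for a call.

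Gata6 (ENSMUSG00000005836, chromosome 18, 11052064 to 11085635, plus strand), its close relative, was graded. Mesothelial cells had 235 and 216 CPM, granulosa cells 142 and 154 and interstitial cells 72.5 and 85.9, with no overlap. Mesothelial cells were 2.84-fold higher than interstitial cells (log2 fold change 1.51, SE 0.38, adjusted p = 0.0119). Granulosa cells lay between them and were called from neither, at 0.90 against interstitial (adjusted p = 0.0795) and -0.61 against mesothelial cells (adjusted p = 0.289). Endothelial cells had 8.69 and 12.7 CPM (7 and 3 UMIs), 15.2-fold below granulosa cells (log2 fold change 3.93, SE 0.66, adjusted p = 0.00184). This call was lost with doubled gate thresholds (adjusted p = 0.0572).

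Gata4 and Emx2 were hardly seen in endothelial cells. Each had 0 UMIs in the 51 cells of replicate 1, which allows a share of up to 5.88% of cells with a UMI (counting error only), and 1 UMI in the 24 cells of replicate 2. Foxl2 had 2 UMIs in each library. All 3 were called lower than in granulosa cells, but with so few UMIs no fold change is given. The Foxl2 and Gata4 calls were kept in every alternative with a test. That of Emx2 was lost with doubled gate thresholds (adjusted p = 0.160). So were the calls of Runx1 (adjusted p = 0.235) and Irx5 (adjusted p = 0.195) in granulosa against endothelial cells.

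Wt1 (ENSMUSG00000016458, chromosome 2, 105126529 to 105173616, plus strand), the zinc finger factor of the coelomic epithelium and its descendants, was found in every somatic type tested. Mesothelial cells had 729 and 664 CPM, granulosa cells 448 and 504, interstitial cells 248 and 345, endothelial cells 170 and 191 and germ cells 4.80 and 23.9. The order was the same in both libraries, but no neighbours other than endothelial and germ cells were called. Mesothelial exceeded endothelial cells (log2 fold change 1.96, SE 0.55, adjusted p = 0.0290), a call lost with doubled gate thresholds (adjusted p = 0.0556). With the library as a block, Wt1 was also called in mesothelial against interstitial cells (1.29, adjusted p = 0.0314, against 1.23 and 0.0820 without it) and in granulosa against endothelial cells (1.37, adjusted p = 0.0485, against 1.41 and 0.0891).

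Emx2 (ENSMUSG00000043969, chromosome 19, 59458372 to 59465357, plus strand), a homeobox gene of the urogenital epithelium, had 66.8 and 80.8 CPM in granulosa and 76.0 and 95.4 in mesothelial cells, which overlapped. Interstitial cells had 13.4 and 20.3 CPM. Both epithelial types were higher, by 2.11 (SE 0.46, adjusted p = 0.00432) in granulosa and 2.34 (SE 0.48, adjusted p = 0.00388) in mesothelial cells on the log2 scale.

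In germ cells every factor was at or below 23.9 CPM. Of the 10 factors, 8 were higher and 1 lower in mesothelial than in germ cells (54.8% of all genes called, 28.5% higher and 26.2% lower). The lower factor was Nr5a2, which rested on 3 and 5 mesothelial UMIs. Its call was lost in thinned cells, with doublets kept and with halved gate thresholds. In interstitial cells 7 were higher and 3 lower than in germ cells (58.5% called, 29.8% higher and 28.7% lower), the 3 being Nr5a2, Irx3 and Irx5. For 9 factors replicate 2 had the higher germ cell level, as it had for the granulosa gate genes, and for Nr5a2 both libraries were at 3.22 CPM.

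Against endothelial cells, 7 factors were higher and 0 lower in mesothelial cells (17.2% of all genes called, 8.52% higher and 8.65% lower). The mesothelial calls of Emx2, Irx3, Runx1 and Wt1 were lost with doubled gate thresholds. Those of Gata4, Gata6 and Irx5 were kept in every alternative with a test. In interstitial cells 3 were higher (Foxl2, Gata4 and Gata6) and 3 lower (Nr5a2, Irx3 and Irx5), among 18.8% of all genes (9.55% higher and 9.22% lower). Of the interstitial calls, those of Gata4 and Irx3 were kept in every alternative with a test. Doubled gate thresholds left 15 and 11 endothelial cells, and the interstitial calls of Foxl2 (adjusted p = 0.0964), Gata6 (adjusted p = 0.180), Irx5 and Nr5a2 were lost. In thinned cells those of Irx5 and Nr5a2 were lost. Nr5a2 was also lost with doublets kept. In germ cells 0 were higher and 3 lower than in endothelial cells (Nr5a1, Irx3 and Wt1), among 44.8% of all genes (23.4% higher and 21.3% lower). There the calls of Nr5a1 and Irx3 were lost in thinned cells and with doubled gate thresholds, and that of Wt1 was kept.

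Granulosa cells with a UMI of Amh or Inhbb, genes of granulosa cells in growing follicles, were compared with those without. They numbered 810 of 1558 (52.0%) in replicate 1 and 190 of 514 (37.0%) in replicate 2. They were deeper, with a median of 11628.5 and 14462 UMIs against 8391.5 and 7614.5, and after thinning 22.1% and 14.1% of cells were positive. Here a call needed only the adjusted p, and 1 of 10 factors was called, where 1.14% of 12039 genes were (1.05% higher and 0.0831% lower).

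That factor was Nr5a2, with 90.7 and 98.5 CPM in positive and 25.1 and 22.7 in negative cells. The classes did not overlap, and positive cells were 3.93-fold higher (log2 fold change 1.97, SE 0.15, adjusted p = 0.00939). UMIs were found in 54.4% and 58.9% of positive and in 18.0% and 15.1% of negative cells, and after thinning in 15.1% and 16.4% against 4.83% and 3.19%. The call was lost when classes and counts came from thinned cells (1.92, adjusted p = 0.0615), without cells holding Mki67 or Top2a UMIs (1.57, adjusted p = 0.192) and with a gate on Wnt6 and Kctd14 alone (2.04, adjusted p = 0.0587).

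Irx3 and Irx5 had lower values in positive cells. Irx3 had 83.0 and 129 CPM against 196 and 258 in negative cells (log2 difference -1.11, SE 0.25, adjusted p = 0.117), and Irx5 had 44.8 and 65.9 against 79.7 and 124 (-0.89, SE 0.27, adjusted p = 0.222). Neither was called. With the library as a block, which leaves 1 residual degree of freedom, 6 factors were called among 3058 genes. Nr5a2 was then higher and Irx3 (-1.13, adjusted p = 6.84e-31), Irx5 (-0.86, adjusted p = 6.18e-15), Wt1 (-0.49, adjusted p = 2.58e-09), Emx2 (-0.45, adjusted p = 1.27e-04) and Runx1 (-0.29, adjusted p = 0.0305) were lower. Without the block Wt1 was at -0.49 (adjusted p = 0.191), Emx2 at -0.47 (adjusted p = 0.290) and Runx1 at -0.31 (adjusted p = 0.443). None of them was called there. Some alternatives without the block also called 1 to 3 factors lower.

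The other factors had intervals around 0. They were -0.18 for Foxl2 (95% interval -0.53 to 0.17), -0.07 for Gata4 (-0.48 to 0.35), -0.18 for Gata6 (-0.51 to 0.16) and 0.00 for Nr5a1 (-0.41 to 0.41). Other RNA moved with the classes. The 7 mesothelial markers summed to 42.2 and 112 raw CPM in positive and 113 and 284 in negative cells. Most of this was Aldh1a2, with a mean of 63.3 in positive and 156 in negative cells. The 5 erythroid markers summed to 31.0 and 40.2 against 302 and 1984. The part of these markers in the differences was not tested.

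**Figure D4:**
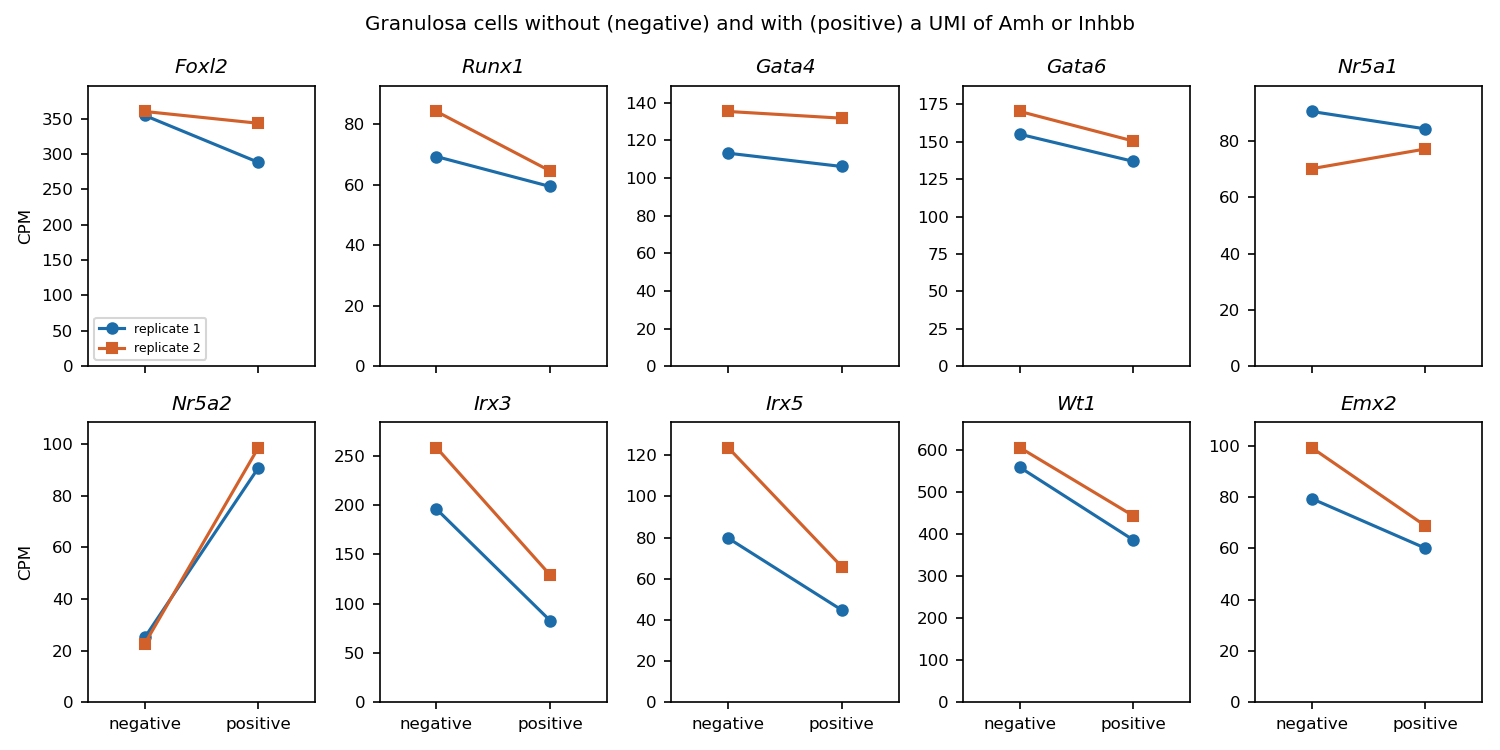
CPM of each factor in granulosa cells without (negative) and with (positive) a UMI of Amh or Inhbb, with a line for each replicate and a linear axis from 0. Nr5a2 is at 25.1 and 22.7 CPM in negative and 90.7 and 98.5 in positive cells. The lines of 8 factors, all but Nr5a2 and Nr5a1, slope down in both replicates. None of these 8 was called in the main fit, which has no library block.

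Other genes of the same pathways were read from fixed lists. Of 38 other gonadal regulators, 32 were tested, and 9 were higher and 12 lower in granulosa than in interstitial cells (median log2 fold change -0.53), beside 15.1% and 12.8% of all genes. Tcf21, a mesenchymal basic helix-loop-helix factor, had 1.73 and 3.41 CPM in granulosa and 553 and 426 in interstitial cells (-7.71, SE 0.59, adjusted p = 6.43e-06). Gata3 was higher in mesothelial than in interstitial cells (8.32, SE 0.81, adjusted p = 4.29e-05), where 9 of the 32 were higher and 14 lower, beside 12.5% and 10.5% of all genes. Between granulosa and mesothelial cells 5 were higher and 8 lower (7.64% and 8.5% of all genes), with Esr2, an estrogen receptor, at 6.19 (SE 0.58, adjusted p = 1.63e-04).

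Of 13 genes known from the testis supporting lineage, 10 were tested, and 9 were higher and 1 lower in granulosa than in interstitial cells (median 2.61), beside the same 15.1% and 12.8% of all genes. Ptgds, a prostaglandin D synthase, had 81.3 and 79.0 CPM in granulosa and 1.52 and 2.39 in interstitial cells. Cyp26b1, which degrades retinoic acid, was the lower gene (-3.27, SE 0.68, adjusted p = 0.00315). In positive against negative granulosa cells 9 of the 13 were tested. Of these, 2 were higher and 0 lower, beside 1.05% and 0.0831% of all genes. They were Ptgds (1.35, SE 0.15, adjusted p = 0.0232) and Dhh, a hedgehog ligand (2.01, SE 0.28, adjusted p = 0.0375). Of the other regulators 25 were tested there, with 0 higher and 1 lower, Lhx9 (-1.21, SE 0.13, adjusted p = 0.0229). Only 2 genes in all were called with classes from thinned cells. Without cells holding Mki67 or Top2a UMIs, and with the Wnt6 and Kctd14 gate, 1 was called each time. The calls of Ptgds, Dhh and Lhx9 thus cannot all hold in these settings.

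Of 15 steroidogenic and granulosa genes, 10 were tested between types, and 7 were higher and 0 lower in granulosa than in interstitial cells (median 1.53), beside the same shares of all genes. Hsd17b1, an enzyme of estradiol synthesis, had 58.4 and 38.5 CPM in granulosa and 0.102 and 0 in interstitial cells. Star, which carries cholesterol into mitochondria, had 55.5 and 35.0 CPM in mesothelial and 3.88 and 1.33 in granulosa cells (granulosa against mesothelial -3.96, SE 0.45, adjusted p = 2.69e-04). Between positive and negative granulosa cells 0 of 11 were called by edgeR (1.14% of all genes were), with the lowest adjusted p at 0.0651 for Hsd3b1, a steroid dehydrogenase (2.51, SE 0.43).

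The genes whose log2 CPM ran most alike with each factor over the 10 sums, which share libraries and cell types, are given as a description. Foxl2 ran with Fndc5 (Pearson r = 0.994), Runx1 with Sdc4 (0.998), Gata4 with Hoxc6 (0.993), Gata6 with Dcaf12l1 (0.989) and Nr5a1 with Ccnd2 (0.993). Nr5a2 ran with Gmpr (0.991), Irx3 with Wsb2 (0.969), Irx5 with Prdx3 (0.978), Wt1 with S100a11 (0.992) and Emx2 with Doc2b (0.984). Between factors, r was 0.980 for Nr5a1 and Wt1 and 0.964 for Irx3 and Irx5.

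Antisense genes adjoin 3 of the factors. Irx3os overlaps Irx3 by 1653 bases on the opposite strand, Emx2os overlaps Emx2 by 264 bases, and Wt1os lies 18 bases from Wt1. Emx2os had 8.44 and 11.3 CPM in granulosa and 3.25 and 4.14 in interstitial cells (1.38, SE 0.39, adjusted p = 0.0195), and Wt1os 27.1 and 29.2 against 15.045 and 16.4 (0.83, SE 0.33, adjusted p = 0.0670, not called). Irx3os had 3.20 and 6.08 CPM in granulosa and 0 UMIs in interstitial cells. Whether reads were counted by strand is not given in the sources used here, so Irx3 and Emx2 may share reads with them.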

How the data were processed

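Single-cell RNA-seq of whole ovaries was analysed from the UMI counts per gene and cell that the authors deposited without normalization, made with Cell Ranger 3.0.2 against GRCm38 per the submitters' processing notes. The labels name version 2 of the reagent kit but the study's methods version 3. Barcodes under 500 genes or over 10% mitochondrial UMIs were dropped, leaving 3738 and 4464 cells. Scrublet (scanpy 1.11.5, expected rate 0.05) removed 96 and 93 doublets at replicate 1's automatic threshold (0.225), since that of replicate 2 (0.521) marked few cells, a choice made with the scores known. Cells entered a type when gate UMIs per 10000 passed 8 (granulosa), 12 (interstitial), 2 (mesothelial), 6 (germ), 4 (endothelial) or 8 (immune), with at least 2 gate UMIs, in exactly 1 gate. Thresholds were set from the gate genes' distributions, after seeing them. Gated were 92.7% and 89.6% of cells.

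UMIs were summed per library and type and tested in a single edgeR 4.0.16 quasi-likelihood fit over 10 sums (R 4.3.3, TMM, filterByExpr), and for the Amh or Inhbb classes over 4 sums. Adjusted p-values are Benjamini-Hochberg over all genes tested. Alternatives were DESeq2 1.42.0, other filters, gates and depths, single libraries and a library block. The block is the library, whose types come from the same animals, so replicate numbers pair the sums: deviations from the type means correlated at 0.0626 to 0.274 over 14873 genes. The edgeR fit was tested on simulated counts, for granulosa against interstitial cells and for the Amh or Inhbb classes. Intervals of log2 fold changes come from the edgeR fit and cover the spread between libraries. In the fit of types all 10 sums share a single estimate of spread per gene. The spread between the germ cell libraries therefore enters comparisons of somatic types. Exact binomial intervals, and the 3 counts that a count of 0 allows, cover counting error only. Members and lists were chosen with earlier results of these data known. Besides the 10 factors, genes were named by rule: the 3 genes most alike to each factor, of which the first is given, and of each list those with the largest called changes. RefSeq promoter windows were found for 5 of the 10 factors.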

Additional observations from a re-analysis of the deposited data

Results flagged for a closer look

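Runx1 was found in immune-gated cells, which no comparison used. Cells gated by Ptprc, Tyrobp and Fcer1g held 23 Runx1 UMIs in replicate 1 and 21 in replicate 2, or 98.2 and 69.6 CPM before scaling. UMIs were found in 13 of 32 cells (40.6%, exact binomial 95% interval 23.7% to 59.4%) and in 13 of 49 cells (26.5%, 14.9% to 41.1%). Each of the other 9 factors had 0 to 5 UMIs there in either library. The granulosa gate genes were at 21.4 and 6.63 CPM in sum in the same cells.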

How the results depend on the processing

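Of 110 comparisons of a factor, 68 were called, and 48 of these kept their call in every alternative with a test. With doubled gate thresholds the called factors numbered 3 in granulosa against endothelial, 3 in mesothelial against endothelial, 2 in interstitial against endothelial and 1 in germ against endothelial cells. Of 14599 genes, 1495, 1386, 1695 and 4703 were called in the same order. Nr5a2 in interstitial against endothelial cells was then fitted at 5.54 (adjusted p = 0.790) with no endothelial UMI left, which gives no direction. Germ against endothelial cells gave 5 without the filter on low counts, 1 in thinned cells, 5 with halved thresholds and 5 to 8 from a single library, where 7475 of 22414, 3327 of 10129, 6926 of 15053 and 9571 to 10384 of 14873 genes were called or past the fold. A single library has no test and gives counts past the fold alone; granulosa against mesothelial cells then gave 2 to 5, the 5 without replicate 2. The Amh or Inhbb classes gave 6 factors with the replicate block, 3 without the filter, 2 with DESeq2, 2 with doubled thresholds, 4 at 2 or more UMIs and 3 by Amh alone. Each time 1 factor was higher, and 5, 2, 1, 1, 3 and 2 were lower in the same order. The classes gave 0 by edgeR with classes from thinned cells, without Mki67 or Top2a cells and with the Wnt6 and Kctd14 gate, where 783, 490 and 1536 genes had an unadjusted p under 0.05. The last 2, the fit without germ cells and the counting of cells of both epithelial gates as mesothelial were chosen after seeing the data. Without germ cells, 13046 genes were tested. Factors called in granulosa cells then numbered 7 against interstitial (3860 genes called), 2 against mesothelial (2464) and 10 against endothelial cells (3030). In mesothelial cells they numbered 8 against interstitial (3350) and 8 against endothelial cells (2759), and in interstitial against endothelial cells 7 (2949). The full fit gave 6, 2, 7, 7, 7 and 6 in the same order. The cause was not tested. The block changed no other call than those given in the text for Foxl2, Wt1 and Irx5, and those of these classes.

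Over all genes, thinning lowered the calls in granulosa against interstitial cells from 4150 to 2473, against mesothelial cells from 2401 to 1219, against germ cells from 8766 to 5385 and against endothelial cells from 2864 to 1160. It lowered those of mesothelial cells from 3425 to 1779 (interstitial), 8146 to 4693 (germ) and 2553 to 927 (endothelial), of interstitial cells from 8703 to 5518 (germ) and 2792 to 1106 (endothelial), and of germ against endothelial cells from 6658 to 3327. Doubled thresholds gave 1495, 1386 and 1695 calls for granulosa, mesothelial and interstitial against endothelial cells. The 137 genes called between the Amh or Inhbb classes became 3058 with the block, 1162 without the filter, 303 with DESeq2, 37 in thinned cells, 51 at 5% mitochondrial UMIs, 332 with doubled thresholds, 820 at 2 or more UMIs, 764 by Amh alone, 336 with all types in a single fit, 2 with classes from thinned cells, and 1 each without cycling cells and with the Wnt6 and Kctd14 gate. The median of all genes was 0.115 to 0.309 (log2) in granulosa against germ, mesothelial, granulosa and interstitial against endothelial, and germ against endothelial cells. With 24 to 51 endothelial cells per library, factors with few UMIs there are limited by depth.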

Other observations

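Cells that passed no gate (205 and 286) held Foxl2 at 193 and 138, Irx3 at 198 and 214 and Nr5a2 at 6.002 and 6.22 raw CPM. Their mean number of factors at 2000 UMIs was 1.66 and 1.84. Cells that passed several gates (61 and 169) held Nr5a2 at 24.8 and 13.5 raw CPM and 1.73 and 1.74 factors on average. The labels and gates put neither set in a cell type.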
